A study of Mus musculus with 6 samples.

Results

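Ligated mouse veins taken with their thrombus held more transcripts of much of the glycolytic pathway and of many genes that the hypoxia-inducible factors (HIFs) switch on. The set described here has 37 genes, found by symbol among the 17761 genes of the deposited count table. It comprises 22 glycolytic enzymes and transporters, 13 other HIF targets and the 2 HIF alpha subunit genes Hif1a and Epas1. All 37 symbols matched a single row, and all 37 passed the filter on low counts. RNA-seq counts were available for 3 Model libraries and 3 Control libraries. In the Model group the inferior vena cava, which returns blood from the hind body to the heart, was tied off, and vein and thrombus were harvested together 24 h later. What was done to the Control animals was not given in the sources used here, nor were strain, sex or age of either group. All 6 samples are labelled as thrombus.

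Glycolysis breaks glucose down to pyruvate in the cytosol and yields ATP without oxygen. Lactate dehydrogenase then turns pyruvate into lactate, and monocarboxylate transporters carry lactate across the cell membrane. When oxygen is low, the HIF alpha subunits escape hydroxylation and degradation, pair with ARNT and bind short DNA motifs near their target genes. Glucose transporters, most glycolytic enzymes, mitophagy receptors and the prolyl hydroxylases that mark HIF for degradation are among those targets. Neutrophils, platelets and red cells, the main cells of a fresh thrombus, rely heavily on glycolysis.

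Of the 37 genes, 16 rose in Model and none fell (26 higher and 0 lower at an unadjusted p under 0.05; 23 higher and 0 lower by DESeq2; 17 higher and 0 lower by limma-voom). Calls were made by the quasi-likelihood test of edgeR, two-sided, at a threshold of 0.05 after Benjamini-Hochberg adjustment over 13907 tested genes, and adjusted p-values are from it unless another tool is named. Among all tested genes 4.07% were called by this test, 2.71% higher and 1.36% lower. DESeq2 called 8.75% of all tested genes, 4.59% higher and 4.16% lower, and limma-voom called 3.32%, 2.5% higher and 0.827% lower. An unadjusted p under 0.05 was found for 15.8% of them. Log2 fold changes of Model over Control were positive for 34 of the 37 genes, beside 49.6% of all tested genes. The median log2 fold change of the 37 genes was 1.29, beside -0.01 over all tested genes. In 27 of the 37 genes the 3 Model libraries all lay above the 3 Control libraries, and in none did they all lie below, while among all tested genes 12.1% lay above and 11.4% below. Leaving out Model 1 reduced the count of higher genes to 9. Model 2 and Control 1 stood apart on liver transcripts: 8 liver marker genes summed to 43.9, 4863 and 99.3 CPM in Model 1 to 3, against 579, 172 and 31.6 CPM in Control 1 to 3. None of the 7 liver markers tested passed (2 at an unadjusted p under 0.05, 0 by DESeq2 and 0 by limma-voom). Without both libraries 9 of the 37 genes were higher, in a comparison of 2 Model with 2 Control libraries. Whether replicates came from different animals is not stated, so that the p-values reflect only how far these libraries differ, and part of that may be technical.

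**Figure D1:**
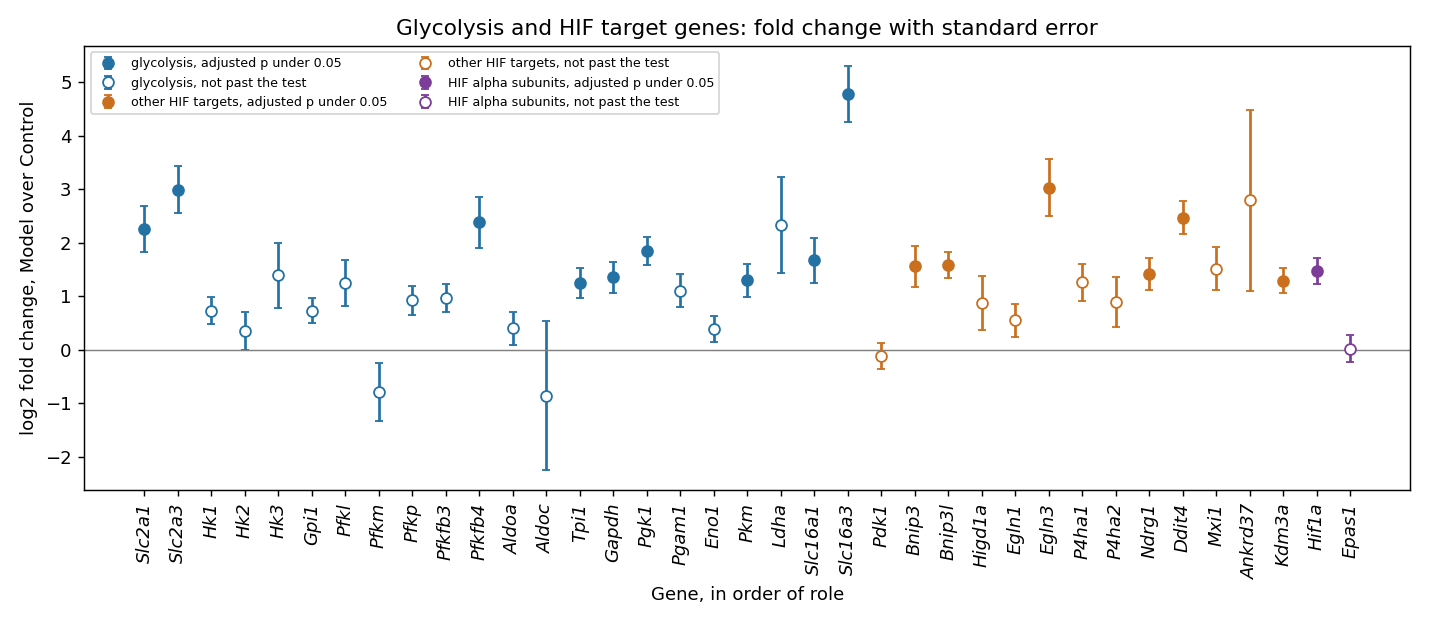
Log2 fold change of Model over Control for each of the 37 genes, in order of role, with the standard error of the edgeR fit as bars. Filled points have an adjusted p under 0.05. Values run from -0.86 for Aldoc to 4.78 for Slc16a3, and all 16 filled points lie above 0.

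Promoter sequences are shown for 5 members because the core HIF motif, an A or a G followed by CGTG, lies in the promoters of members that rose and of members that did not. RefSeq windows of 250 bases before the transcript start (build GRCm38.p6) were found for 33 of the 37 genes. Slc2a3, Bnip3l, Ndrg1 and Epas1 have no entry in that table. The letters ACGTG and GCGTG were searched on both strands, and CACGTG counts as a match on each strand, so that matches may overlap. In 31 of the 33 genes (93.9%) at least 1 window held a match, beside 54.4% of the 12835 genes of the count table with such a window and 47.1% of 17491 protein-coding genes. Counted by window, because some genes have several, 80.0% of 50 windows of members held a match, beside 44.0% of 21262 windows of protein-coding genes. A match was found for 12 of 13 genes with a window that rose and for 19 of 20 genes with a window that did not pass the test. Such a match is a description of the letters and shows no binding. In the sequences, which run 5′ to 3′ on the gene's own strand, capitals mark the matches. Pgk1 (chrX:106186850-106187099, plus strand), Slc2a1 (chr4:119108495-119108744, plus strand) and Slc16a3 (chr11:120948817-120949066, plus strand; its RefSeq start lies downstream of the GENCODE gene start) rose and hold 2 matches each. Tpi1 (chr6:124814159-124814408, minus strand) rose and holds none. The RefSeq starts of Tpi1 and Slc2a1 also lie downstream of the GENCODE gene starts, so that part of each window lies within the GENCODE gene. The whole Slc16a3 window, with both its matches, lies within the GENCODE gene, which starts at 120948480. Pdk1 (chr2:71872974-71873223, plus strand) did not pass the test and holds 1.
Pgk1: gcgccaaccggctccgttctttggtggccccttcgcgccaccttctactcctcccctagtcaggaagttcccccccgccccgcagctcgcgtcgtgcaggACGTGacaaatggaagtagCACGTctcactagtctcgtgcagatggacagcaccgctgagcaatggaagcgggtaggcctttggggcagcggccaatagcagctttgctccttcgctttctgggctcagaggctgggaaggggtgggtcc
Slc2a1: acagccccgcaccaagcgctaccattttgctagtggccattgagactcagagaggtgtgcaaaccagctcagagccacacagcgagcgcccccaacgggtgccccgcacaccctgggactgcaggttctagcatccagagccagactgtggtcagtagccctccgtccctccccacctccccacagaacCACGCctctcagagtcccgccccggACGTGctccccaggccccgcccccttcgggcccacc
Slc16a3: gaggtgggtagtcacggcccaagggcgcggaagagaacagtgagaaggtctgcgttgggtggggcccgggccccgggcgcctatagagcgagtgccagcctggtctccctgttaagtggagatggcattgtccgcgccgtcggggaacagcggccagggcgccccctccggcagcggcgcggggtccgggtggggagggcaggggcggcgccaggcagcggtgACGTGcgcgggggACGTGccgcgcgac
Tpi1: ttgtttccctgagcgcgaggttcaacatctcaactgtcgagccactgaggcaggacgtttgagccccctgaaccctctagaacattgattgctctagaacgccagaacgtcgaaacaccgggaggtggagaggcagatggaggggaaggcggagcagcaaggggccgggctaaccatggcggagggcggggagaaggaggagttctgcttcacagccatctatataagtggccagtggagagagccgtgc
Pdk1: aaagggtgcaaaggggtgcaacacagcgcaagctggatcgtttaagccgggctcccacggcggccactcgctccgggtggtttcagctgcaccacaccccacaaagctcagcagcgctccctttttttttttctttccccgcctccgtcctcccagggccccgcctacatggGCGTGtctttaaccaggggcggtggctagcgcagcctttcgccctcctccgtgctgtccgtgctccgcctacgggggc

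Both glucose transporter genes of the set rose in Model. Slc2a1 (ENSMUSG00000028645, chromosome 4, 119108711 to 119137983 of GRCm38), which encodes the widely expressed transporter GLUT1, stood at 298, 126 and 247 CPM in Model 1 to 3, against 79.4, 32.8 and 28.9 CPM in Control 1 to 3. CPM are counts scaled to a common library total after trimmed mean of M values (TMM) scaling. The groups did not overlap, and the lowest Model library, Model 2, lay above the highest Control library, Control 1. The mean was 4.76-fold higher (log2 fold change 2.25, SE 0.43, adjusted p = 0.0102). Slc2a3 (ENSMUSG00000003153, chromosome 6, 122727809 to 122801640), which encodes the high-affinity transporter GLUT3 of neurons, leukocytes and platelets, stood at 335, 565 and 231 CPM in Model, against 22, 74.6 and 45.9 CPM in Control. Its mean was 7.94-fold higher (log2 fold change 2.99, SE 0.44, adjusted p = 0.00225). Model 2 was the highest Model library for Slc2a3 and the lowest for Slc2a1. That library also had the largest summed level of 13 neutrophil marker genes, 6978 CPM, beside 2485 CPM in Model 1 and 2502 CPM in Model 3. Among Model libraries it was likewise the highest for red cell, monocyte and macrophage, T and B cell, smooth muscle and liver markers. The part of any of these cells in the transporter levels was not tested. Without Model 1 the adjusted p of Slc2a1 was 0.0643, while Slc2a3 passed in all 14 alternative analyses.

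None of the 3 hexokinase genes, whose enzymes trap glucose in the cell as glucose phosphate, passed the test. Hk1, the housekeeping form, stood at 373, 293 and 249.9 CPM in Model, against 216, 190.4 and 145 CPM in Control (log2 fold change 0.73, SE 0.25, adjusted p = 0.157). Hk2, the form of muscle and fat that HIF induces, stood at 121, 128 and 271 CPM in Model, against 89.3, 178 and 139.9 CPM in Control (0.35, SE 0.35, adjusted p = 0.711). Model 3 was its only library above all Control libraries, and without Model 3 the log2 fold change of Hk2 was -0.12. Hk3, the form of myeloid cells, stood at 39.1, 28.5 and 22 CPM in Model, against 8.77, 8.37 and 17.0 CPM in Control (1.39, SE 0.61, adjusted p = 0.290). The groups did not overlap for Hk1 and Hk3 and overlapped for Hk2.

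The next steps of the hexose phase were uneven. Gpi1, glucose phosphate isomerase, stood at 731, 509.7 and 543 CPM in Model, against 375, 395 and 304 CPM in Control (0.73, SE 0.24, adjusted p = 0.141; 0.037 by DESeq2). Of its 100-base transcript windows 7.18% also occur in another annotated gene, mainly one on the opposite strand, and the strand setting of the counts was not given in the sources used here. Phosphofructokinase, which commits the sugar to glycolysis, has liver, muscle and platelet subunits. Pfkl, the liver subunit, stood at 227, 142 and 162 CPM in Model, against 25.4, 112 and 86.2 CPM in Control (1.25, SE 0.43, adjusted p = 0.16; 0.00433 without a filter). Pfkp, the platelet subunit, stood at 347, 295 and 286 CPM in Model, against 189.7, 191 and 109 CPM in Control (0.92, SE 0.27, adjusted p = 0.0811; 0.0215 by DESeq2 and 0.0305 without a filter). Pfkm, the muscle subunit, stood at 9.62, 31.0 and 20.6 CPM in Model, against 24.8, 45.0 and 36.1 CPM in Control (-0.79, SE 0.55, adjusted p = 0.548). Thus Model libraries lay above Control for the liver and platelet subunits, with no overlap, and the groups overlapped for the muscle subunit. Of the Pfkm windows 7.43% also occur in a gene that overlaps Pfkm on the same strand by 341 exonic bases. For Pfkp the share was 4.66%, in Pitrm1, which overlaps it on the opposite strand by 748 exonic bases. Levels of both genes are uncertain to that extent.

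Of the regulators that make and remove the activator of phosphofructokinase, Pfkfb4 rose. Pfkfb4 (ENSMUSG00000025648, chromosome 9, 108991778 to 109032228) stood at 90.3, 80.1 and 36.6 CPM in Model, against 11, 17.7 and 10.9 CPM in Control, a 5.22-fold higher mean (log2 fold change 2.38, SE 0.48, adjusted p = 0.0142). Its level in Model 3 was less than that of the other Model libraries and still above every Control library. The summed level of 10 platelet marker genes had the same order, 1962, 1609.7 and 761 CPM in Model 1 to 3. So did that of 8 skeletal muscle marker genes, 97.0, 31.9 and 20.2 CPM. The part of either cell type in the Pfkfb4 level was not tested. Pfkfb3, which strongly favours synthesis of the activator, stood at 482, 443 and 413 CPM in Model, against 156, 287 and 245 CPM in Control (0.96, SE 0.26, adjusted p = 0.0645; 0.00807 by DESeq2 and 0.0342 by limma-voom). The call of Pfkfb4 was lost without Model 1 (adjusted p = 0.0685), without Model 2 (0.0546), and without Control 1 and Model 2 together (0.121).

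In the aldolase and triose steps, 4 of 8 genes rose: Tpi1, Gapdh, Pgk1 and Pkm. Pgk1 (ENSMUSG00000062070, chromosome X, 106187100 to 106203699), phosphoglycerate kinase, stood at 546, 523 and 613 CPM in Model, against 115, 196 and 159 CPM in Control, a 3.58-fold higher mean (log2 fold change 1.84, SE 0.26, adjusted p = 0.00143). All 3 Model libraries were close together and far above the highest Control library. Pkm, pyruvate kinase of most tissues, stood at 3221, 1898 and 1708 CPM in Model, against 987, 991 and 788 CPM in Control (1.30, SE 0.31, adjusted p = 0.0326). Tpi1, triose phosphate isomerase, stood at 386, 310.4 and 373 CPM in Model, against 110.4, 213 and 127 CPM in Control (1.25, SE 0.28, adjusted p = 0.0258). Gapdh, glyceraldehyde phosphate dehydrogenase and a common reference gene, stood at 143, 207 and 124 CPM in Model, against 51.1, 69.8 and 65.0 CPM in Control (1.35, SE 0.29, adjusted p = 0.0203). None of these 4 genes overlapped between the groups.

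Pgk1 passed in all 14 alternative analyses, and the other risers of these steps did not. The call of Pkm was lost without Control 1, Control 2, Control 3 or Model 1 (adjusted p = 0.0962, 0.0698, 0.16 and 0.153) and without Control 1 and Model 2 together (0.109). For Tpi1 it was lost when Control 1, Control 3, Model 1 or Model 3 was left out (0.0879, 0.103, 0.0921 and 0.0599) and without Control 1 and Model 2 together (0.119). For Gapdh it was lost when Control 1, Control 3 or Model 2 was left out (0.0627, 0.0591 and 0.108) and without Control 1 and Model 2 together (0.145). Their log2 fold changes were positive in all 14 alternative analyses, between 0.96 and 1.59.

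The other 4 genes of these steps did not pass. Pgam1, phosphoglycerate mutase, stood at 131, 107 and 127 CPM in Model, against 77.2, 51.4 and 41.9 CPM in Control (1.10, SE 0.31, adjusted p = 0.0728), and was called without Control 1 (0.0332), by DESeq2 (0.025) and without a filter (0.0344). Aldoa, the main aldolase, stood at 896, 579 and 1009 CPM in Model, against 417, 866 and 593 CPM in Control (0.40, SE 0.31, adjusted p = 0.604). Eno1, the main enolase, stood at 866, 590.2 and 752 CPM in Model, against 561, 623 and 512 CPM in Control (0.38, SE 0.24, adjusted p = 0.503). Aldoc, the aldolase of brain, stood at 0.606, 11.9 and 3.94 CPM in Model, against 0.481, 23.4 and 5.98 CPM in Control (-0.86, SE 1.39, adjusted p = 0.848). The groups overlapped for Aldoa, Eno1 and Aldoc, and Aldoc varied more within each group than between them. Without Control 2 its log2 fold change was 0.77.

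Several of these genes share exact sequence with other annotated genes, most of them processed pseudogenes, and may share reads with them. Of the 100-base windows in annotated transcripts, the share found exactly in another gene was 51.6% for Pgk1, 33.9% for Pgam1, 20.9% for Gapdh (in 86 other genes) and 20.4% for Eno1. It was 12.3% for Pkm, which includes a locus that overlaps Pkm on the same strand by 767 exonic bases. How reads with several places were counted was not given in the sources used here, so levels of these genes relative to others are uncertain.

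Lactate handling held the gene with the largest rise of the 37. Slc16a3 (ENSMUSG00000025161, chromosome 11, 120948480 to 120960868), which encodes the lactate exporter MCT4, stood at 184, 105 and 115 CPM in Model, against 2.15, 8.23 and 4.30 CPM in Control. Its mean was 27.6-fold higher (log2 fold change 4.78, SE 0.52, adjusted p = 2.76e-04), and it passed in all 14 alternative analyses. Slc16a1, which encodes the transporter MCT1 that moves lactate in either direction, stood at 88.6, 98.9 and 238 CPM in Model, against 28.6, 45.1 and 60.6 CPM in Control (1.67, SE 0.42, adjusted p = 0.0449). Model 3 was the highest library for Slc16a1, whereas Model 1 was the highest for Slc16a3. The summed level of 8 adipocyte marker genes was also highest in Model 3, with 6447, 4403 and 8548 CPM in Model 1 to 3, against 4843, 6415 and 5104 CPM in Control 1 to 3. Among these markers Ucp1, the uncoupling protein of brown fat, which was singled out after its values were seen, stood at 36.5, 45.3 and 759.9 CPM in Model, against 17.9, 119 and 175 CPM in Control. Ucp1 had the same order of Model libraries as Slc16a1 and Hk2, whereas the adipocyte sum did not. This order was not particular to Ucp1, since the summed level of 8 fibroblast marker genes had it too. That sum was 2926, 3150.4 and 3287 CPM in Model 1 to 3, against 4217, 3891 and 6588 CPM in Control 1 to 3. None of the 8 adipocyte markers passed (2 lower at an unadjusted p under 0.05, 1 lower by DESeq2 and 1 lower by limma-voom). Of these markers 4 had a positive log2 fold change, with a list median of -0.14. The part of fat cells or fibroblasts in the levels of Slc16a1 and Hk2 was not tested. The call of Slc16a1 was lost when Control 1, Control 2, Model 1 or Model 3 was left out (adjusted p = 0.164, 0.1, 0.0522 and 0.237), without Control 1 and Model 2 together (0.144), and with upper-quartile scaling or a minimum count of 100 (0.0717 and 0.0551). Ldha, lactate dehydrogenase A, stood at 36.1, 21.1 and 22 CPM in Model, against 1.13, 3.38 and 11.2 CPM in Control (2.33, SE 0.89, adjusted p = 0.201; 0.0461 by DESeq2). The Ldha groups did not overlap, but its Control libraries differed among themselves about as widely as the lower Model libraries differed from Control 3. Of its 100-base windows 0.59% occur exactly in another annotated gene, while copies with mismatches were not counted. How reads with several places were treated was not stated, so the low level of Ldha is uncertain.

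**Figure D2:**
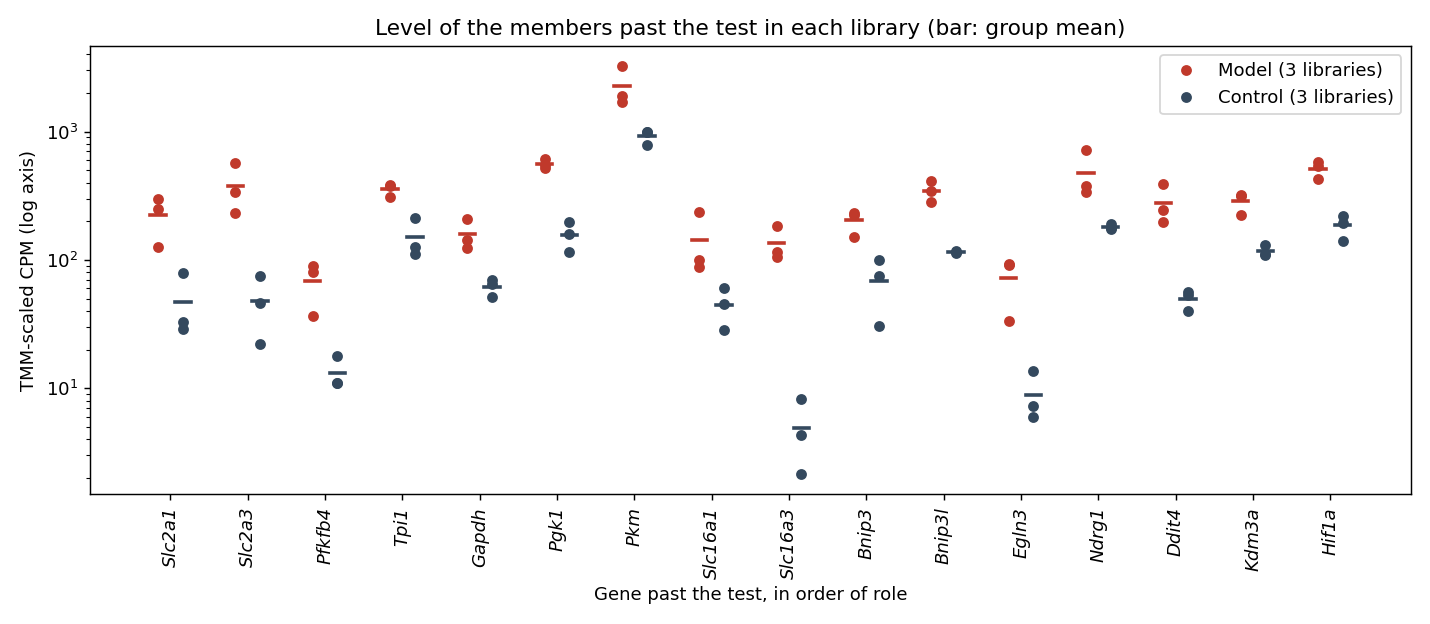
TMM-scaled CPM on a log axis in each library for the 16 genes past the test, Model left of Control for each gene, with bars at the group means. The 3 Model libraries lie above the 3 Control libraries for every gene shown, with the widest gap for Slc16a3.

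Among the other HIF targets, 6 of 13 rose and none fell (8 higher and 0 lower at an unadjusted p under 0.05, and 8 and 0 by DESeq2). Pdk1, the kinase that blocks pyruvate entry to the mitochondrial cycle, was not among them. It stood at 199, 137 and 135 CPM in Model, against 165, 182 and 165 CPM in Control (log2 fold change -0.12, SE 0.24, adjusted p = 0.887), with overlapping groups. In contrast, both mitophagy receptor genes rose. Bnip3l (ENSMUSG00000022051, chromosome 14, 66985239 to 67008877), also called Nix and required to clear mitochondria from maturing red cells, stood at 345, 409.7 and 281 CPM in Model, against 117, 116 and 114 CPM in Control. Its Control libraries were nearly equal, and its mean was 2.99-fold higher in Model (1.58, SE 0.24, adjusted p = 0.00244). The summed level of 9 red cell marker genes had the same order, 15335, 28690.1 and 4897 CPM in Model 1 to 3, against 323 to 447 CPM in Control. This order of Model libraries was not particular to red cells, since monocyte and macrophage, T and B cell and smooth muscle markers had it too. The part of any of these cells in the Bnip3l level was not tested. Bnip3 stood at 224, 152 and 232 CPM in Model, against 30.7, 99.5 and 75.4 CPM in Control (1.56, SE 0.38, adjusted p = 0.0381). Its call was lost without Control 1, Control 3, Model 1 or Model 3 (0.0567, 0.0667, 0.122 and 0.0891) and with upper-quartile scaling or a minimum count of 100 (0.0698 and 0.0519). Higd1a, a small mitochondrial protein that protects cells in hypoxia, stood at 29.4, 44.6 and 54.6 CPM in Model, against 12.3, 23.9 and 33.9 CPM in Control (0.87, SE 0.50, adjusted p = 0.438). Windows found exactly in another gene made up 24.6% for Bnip3, 14% for Bnip3l and 19.9% for Higd1a. They occur in pseudogenes, for Bnip3 and Higd1a also in genes on the opposite strand, and for Bnip3 also in a long noncoding RNA gene. Levels of Bnip3, Bnip3l and Higd1a are thus uncertain in the same way.

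Of the prolyl hydroxylases, Egln3 rose and 3 others did not pass the test. Egln3 (ENSMUSG00000035105, chromosome 12, 54178981 to 54203860), which encodes the HIF hydroxylase PHD3, stood at 91.1, 33.4 and 93.5 CPM in Model, against 13.5, 7.21 and 5.92 CPM in Control. This was an 8.18-fold higher mean (log2 fold change 3.03, SE 0.54, adjusted p = 0.00701), past the threshold in all 14 alternative analyses. Egln1, which encodes PHD2, the main oxygen sensor of the pathway, stood at 110.5, 72.3 and 90.1 CPM in Model, against 52.8, 61.5 and 71.6 CPM in Control (0.55, SE 0.31, adjusted p = 0.423). Model 2 and Control 3 were nearly level for Egln1. The collagen prolyl hydroxylase genes P4ha1 and P4ha2 act on newly made collagen chains. P4ha1 stood at 98.7, 75.3 and 101 CPM in Model, against 52.7, 33.4 and 28.4 CPM in Control (1.26, SE 0.35, adjusted p = 0.0728), and was called without Control 1 (0.0363), without Control 1 and Model 2 together (0.0455) and by DESeq2 (0.0179). P4ha2 stood at 55.3, 26.5 and 60.1 CPM in Model, against 25.7, 31.5 and 19.3 CPM in Control, with overlapping groups (0.89, SE 0.46, adjusted p = 0.380).

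Among the stress and growth genes, Ddit4 and Ndrg1 rose. Ddit4 (ENSMUSG00000020108, chromosome 10, 59949669 to 59951834), which encodes REDD1, an inhibitor of mTOR signalling, stood at 391, 245 and 196 CPM in Model, against 56.3, 40.1 and 53.6 CPM in Control. Its mean was 5.54-fold higher (log2 fold change 2.47, SE 0.31, adjusted p = 6.08e-04), past the threshold in all 14 alternative analyses. Ndrg1, a stress-responsive gene of differentiation, stood at 720, 338 and 376 CPM in Model, against 178, 189 and 175 CPM in Control (1.41, SE 0.30, adjusted p = 0.0186). Model 1 stood far above the other Model libraries for Ndrg1, and without it the log2 fold change was 0.98 (adjusted p = 0.0683). Its call was also lost without Control 1 (0.0747), without Control 3 (0.0605) and without Control 1 and Model 2 together (0.0594). Mxi1, an antagonist of MYC, stood at 116, 56.5 and 57.1 CPM in Model, against 28.3, 28.3 and 24.0 CPM in Control (1.51, SE 0.40, adjusted p = 0.0580; 0.00837 by DESeq2). Its groups did not overlap, and Model 1 was again the highest library.

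Kdm3a, a histone demethylase gene induced by hypoxia, rose, and Ankrd37 varied too much to call. Kdm3a (ENSMUSG00000053470, chromosome 6, 71588972 to 71632990) stood at 314, 319.8 and 224 CPM in Model, against 110.5, 130.1 and 109.6 CPM in Control (log2 fold change 1.29, SE 0.24, adjusted p = 0.00975). Its call was lost without Control 1 and Model 2 together (0.0879). Ankrd37, an ankyrin repeat gene, stood at 0.848, 3.82 and 8.86 CPM in Model, against 0.934, 0.219 and 0.795 CPM in Control (2.79, SE 1.69, adjusted p = 0.474). Model 1 lay within the Control range for Ankrd37, and the 21, 105 and 225 counts in Model and 33, 9 and 27 counts in Control make it the least deeply counted gene beside Aldoc. It also overlaps Lrp2bp on the opposite strand by 349 exonic bases, and reads in those bases, out of 1539 exonic bases of Ankrd37, cannot be assigned without a stated strand setting.

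The HIF alpha subunit genes differed from each other. Hif1a (ENSMUSG00000021109, chromosome 12, 73901375 to 73947530), the broadly expressed subunit, stood at 425, 578 and 538 CPM in Model, against 195, 141 and 221 CPM in Control. It rose 2.77-fold in mean (log2 fold change 1.47, SE 0.25, adjusted p = 0.00599) and lost its call in 1 of 14 alternative analyses, without Control 1 and Model 2 together (0.0597). Epas1, which encodes HIF2A and is most abundant in endothelium, stood at 760.1, 485 and 688 CPM in Model, against 634, 675 and 596 CPM in Control (0.02, SE 0.25, adjusted p = 0.985). The sign of the Epas1 value changed in 6 alternatives, between -0.12 and 0.19. Summed levels of 10 endothelial marker genes were 3154, 2085 and 2454 CPM in Model, against 2230.5, 2087 and 1963 CPM in Control, the same order of Model libraries as for Epas1, and their part in its level was not tested. HIF activity is set largely at the level of protein, which these counts do not measure.

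Most values were positive in both the glycolytic genes and the other HIF targets. Of the 22 glycolytic genes 9 rose (40.9%), and of the 13 other HIF targets 6 rose (46.2%), beside 2.71% of all tested genes. Their median log2 fold changes were 1.25 for the glycolytic genes and 1.41 for the other HIF targets. Relative to the Control mean of each gene, on log2 of CPM plus 0.1, the median glycolytic gene stood at 1.23, 1.14 and 1.04 in Model 1 to 3, against -0.40, 0.31 and 0.04 in Control 1 to 3. The median of the other HIF targets stood at 1.43, 1.08 and 1.28 in Model, against 0.02, 0.07 and -0.04 in Control. The class median was thus lower in Control 1 and higher in Control 2 for the glycolytic genes, and near 0 in all 3 Control libraries for the other HIF targets. The difference between the classes was not tested, since the genes were chosen with results known. Within the glycolytic class, all 4 transporter genes rose, with log2 fold changes of 1.67 to 4.78, and 5 of the 18 enzyme and regulator genes did.

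Shares of isozymes within their families do not depend on how a library is scaled, and 5 of 14 shares examined did not overlap between the groups. Shares were taken over counts divided by the merged exon length of each gene. Slc16a3 made up 63.4%, 47.0% and 28.6% of the summed level of Slc16a1 and Slc16a3 in Model, against 5.89%, 13.2% and 5.58% in Control. Ldha made up 31.4%, 16.8% and 10.1% of Ldha and Ldhb in Model, against 0.631%, 1.28% and 5.49% in Control. Both lactate-linked shares were higher in every Model library, and that of Ldha carries the uncertainty of its level. Pfkfb4 made up 22.5%, 21.9% and 12.1% of Pfkfb3 and Pfkfb4 in Model, against 9.85%, 8.72% and 6.46% in Control. Pfkm made up 4.59%, 17.6% and 11.9% of the phosphofructokinase subunits in Model, against 29.2%, 30.3% and 33.9% in Control. Epas1 made up 65.4%, 47.0% and 57.4% of the HIF alpha subunits in Model, against 77.5%, 83.5% and 74.0% in Control. The last pair of shares was lower in every Model library, and that of Pfkm carries the uncertainty of the Pfkm and Pfkp levels. Each of these 5 differences had an exact permutation p of 0.1, two-sided, the smallest that 3 against 3 libraries can give, and 0.28 after adjustment over the 14 shares. They are therefore not significant by this test. Among the other shares, Egln3 made up 32.3% ± 12.4 of Egln1, Egln2 and Egln3 in Model and 10.2% ± 8.30 in Control (SD, n = 3 each; exact permutation p = 0.2). Slc2a3 made up 44.9% ± 20.4 of Slc2a1 and Slc2a3 in Model and 35.9% ± 21.3 in Control (exact permutation p = 0.6). The hexokinases had no isozyme whose share was separated between the groups (exact permutation p = 1, 0.6 and 0.2 for Hk1, Hk2 and Hk3).

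**Figure D3:**
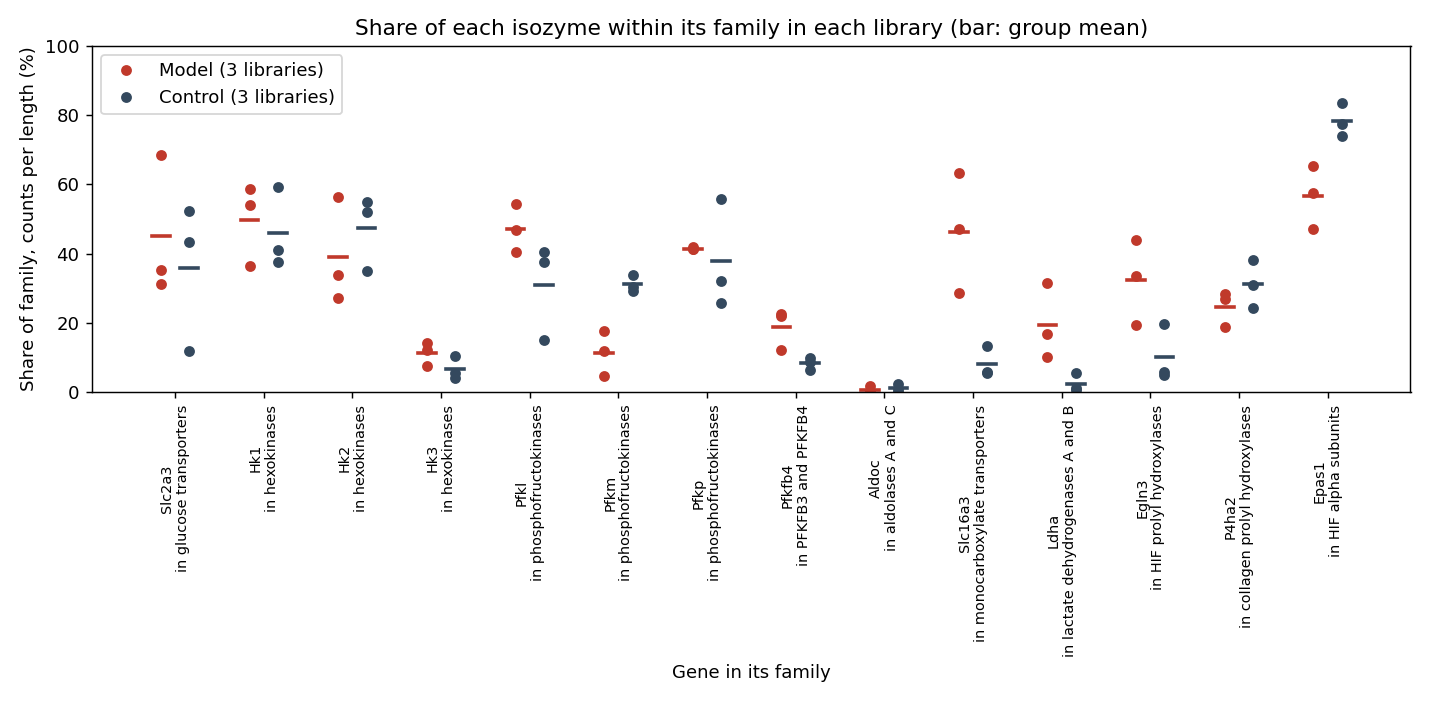
Share of each gene in the summed counts per exon length of its family, in percent, for each library, Model left of Control, with bars at the group means. Groups are apart for Pfkm, Pfkfb4, Slc16a3, Ldha and Epas1 and overlap for the other shares.

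Per exon length, on the scale of TPM (transcript counts scaled by length and library total), Pkm and Aldoa were the most abundant genes of the set by these counts in both groups. The order is uncertain for Pkm, Pgk1, Eno1 and Gapdh among others, since they share exact sequence with other annotated genes. In Model the order was led by Pkm with 1733 ± 619 TPM, Aldoa with 1098 ± 354 TPM, Pgk1 with 958 ± 141 TPM and Ddit4 with 600 ± 214 TPM (SD, n = 3 each). In Control it was led by Aldoa with 997 ± 424 TPM, Pkm with 844 ± 131 TPM, Epas1 with 520 ± 61.7 TPM and Eno1 with 482 ± 74.5 TPM. By library, Pkm, Aldoa and Pgk1 overlapped from each neighbour to the next in Model, and so did Pgk1 and Ddit4, since Ddit4 reached 846 TPM in Model 1 and Pgk1 was at 836 TPM in Model 2. Each of these neighbours in Control overlapped as well, apart from Pkm and Epas1, which were at 708 TPM and more and at 591 TPM and less. Ddit4 held rank 4 of 37 in Model and rank 13 in Control, and Slc16a3 held rank 25 in Model and rank 36 in Control. The uncertain level of Ldha was near the bottom in both groups, with 30.4 ± 9.72 TPM in Model and 7.22 ± 7.12 TPM in Control, while Ldhb, which encodes the subunit of oxidative tissues, had 148 ± 80.5 TPM in Model and 293 ± 81.5 TPM in Control.

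Beyond the 37 genes, some further HIF targets also rose. Of 27 tested further HIF targets 6 rose and none fell (14 with an unadjusted p under 0.05, and 10 higher and 0 lower by DESeq2), with a median log2 fold change of 0.89. Calls made up 22.2% of this list, beside 4.07% of all tested genes. Adm, the vasodilator peptide adrenomedullin, stood at 95.6, 83.2 and 106 CPM in Model, against 3.40, 5.36 and 9.42 CPM in Control (3.97, SE 0.47, adjusted p = 5.00e-04). Ero1l, an oxidase of protein folding, stood at 372, 223 and 523 CPM in Model, against 20.8, 43.2 and 37.4 CPM in Control (3.46, SE 0.38, adjusted p = 2.54e-04). For both genes every Model library lay several-fold above every Control library. Adm and Ero1l passed in all 14 alternative analyses. Vegfa, the main angiogenic growth factor, stood at 404, 242 and 256 CPM in Model, against 164, 178 and 167 CPM in Control (0.82, SE 0.26, adjusted p = 0.106; 0.0405 by DESeq2). Car9, a carbonic anhydrase that hypoxia induces strongly in tumours, had 2, 0 and 22 counts in Model and 0, 20 and 0 counts in Control and was not tested. A count of 0 allows up to 3 counts, or 0.073 to 0.121 CPM in these libraries, for counting error only.

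Of 7 genes for HIF partners and HIF degradation, none passed (0 at an unadjusted p under 0.05, 0 by DESeq2 and 0 by limma-voom). Over all tested genes 4.07% were called, so no call among 7 genes is near that share. Arnt, the partner of the alpha subunits, stood at 189, 201 and 255 CPM in Model, against 190.4, 139 and 130.2 CPM in Control (log2 fold change 0.49, SE 0.25, adjusted p = 0.371). Vhl, the ligase subunit that removes hydroxylated HIF, stood at 25.5, 21.7 and 39.0 CPM in Model, against 17.7, 19.4 and 34.3 CPM in Control (0.27, SE 0.52, adjusted p = 0.880). The groups overlapped for both genes. Of 15 tested other glycolytic isozymes and transporters, 1 rose and 1 fell (13.3% called). Bpgm, the enzyme that makes the bisphosphoglycerate of red cells, stood at 166, 346 and 90.5 CPM in Model, against 24.2, 33.5 and 33.8 CPM in Control (2.72, SE 0.43, adjusted p = 0.00340). The Model libraries had the same order for Bpgm as for the summed red cell markers, and as for monocyte and macrophage, T and B cell and smooth muscle markers. The part of these cells in the Bpgm level was not tested. Slc2a4, the insulin-responsive glucose transporter GLUT4 of fat and muscle, stood at 6.46, 20.4 and 22.4 CPM in Model, against 37.4, 127 and 106 CPM in Control (-2.45, SE 0.56, adjusted p = 0.0283). Its call was lost without Control 2, Control 3 or Model 1 (0.109, 0.0642 and 0.0767). By limma-voom its adjusted p was 0.12. Ldhb, in the same list, stood at 37.3, 49.6 and 92.5 CPM in Model, against 84.5, 124 and 91.4 CPM in Control (-0.74, SE 0.37, adjusted p = 0.360), with overlapping groups.

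Of 15 genes of the tricarboxylic acid cycle none passed (2 at an unadjusted p under 0.05, 0 by DESeq2 and 0 by limma-voom), with a median log2 fold change of -0.55 and 3 positive values. None of 7 pentose phosphate genes passed either (3 at an unadjusted p under 0.05, 1 lower by DESeq2 and 0 by limma-voom), with a median of -0.07. Since 4.07% of all tested genes were called, no call among 15 or 7 genes is near that share. Of 11 genes for pyruvate entry to mitochondria 1 rose (9.09%), with a list median of -0.15. It was Pdk4, a pyruvate dehydrogenase kinase of fasting and glucocorticoid action, which stood at 995, 574 and 1047 CPM in Model, against 232, 387 and 378 CPM in Control (1.39, SE 0.30, adjusted p = 0.0226). The call of Pdk4 was lost without Control 1, Model 1 or Model 3 (0.0930, 0.0938 and 0.0639). Thus Pdk4 passed the test and Pdk1 did not, and the difference between them was not tested.

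**Figure D4:**
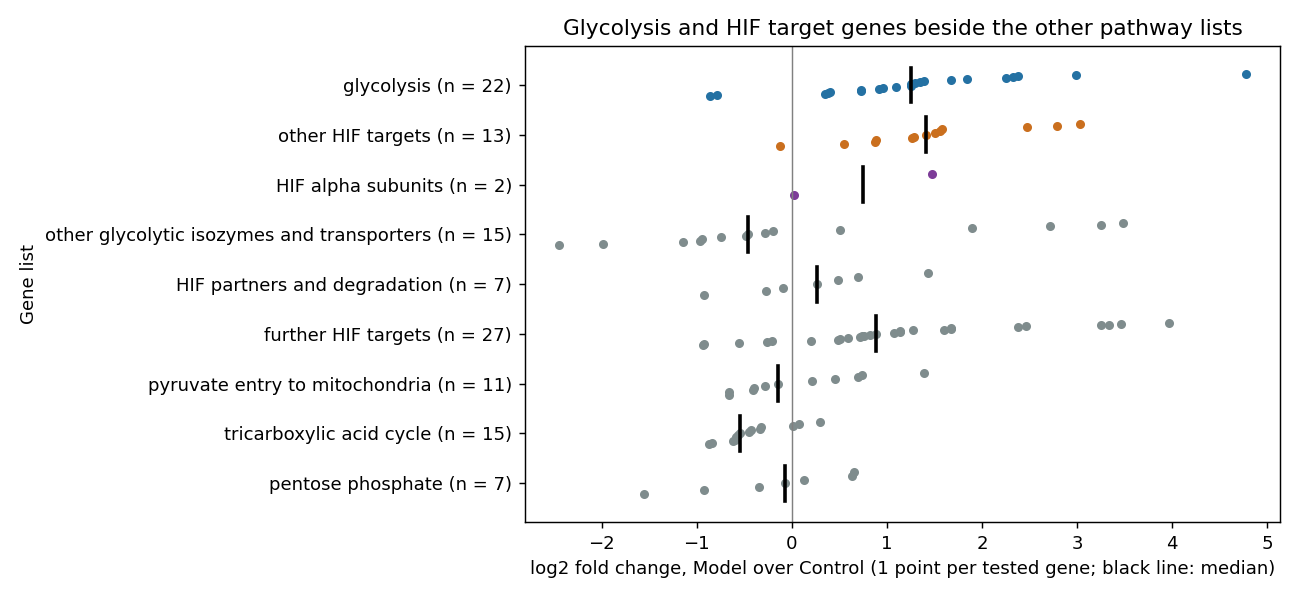
Log2 fold change of Model over Control for each tested gene, by list, with a black line at each list's median. The glycolytic genes (median 1.25) and other HIF targets (1.41) lie mostly right of 0, and the genes of the tricarboxylic acid cycle (-0.55) mostly left of it.

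The libraries held 25336173 to 28193281 counts in Model and 31924426 to 38118463 counts in Control. Cell type markers differed between the groups: of tested markers, 10 of 11 for neutrophils, 9 of 10 for platelets and 5 of 7 for red cells rose, and 6 of 9 for T and B cells fell. In the same directions DESeq2 called 10, 9, 5 and 7 of them, and limma-voom called 6, 5, 5 and 4. Summed levels were 2485 to 6978 CPM in Model and 36.9 to 133 CPM in Control for neutrophil markers. Of these, Ly6g was at 0 in all 3 Control libraries and had 1, 337 and 147 counts in Model 1 to 3, near 0 in Model 1. Camp was at or near 0 in all but 1 library, Control 2, and neither gene was tested. Summed levels of 10 platelet markers were 761 to 1962 CPM in Model and 151 to 285 CPM in Control, with none at 0. The Control libraries thus held little of the marker transcripts of a thrombus, although they carry that label. Smooth muscle markers summed to 1349 to 3066 CPM in Model and 3521 to 5029 CPM in Control, with 0 of 8 genes past the test (3 at an unadjusted p under 0.05, 2 lower by DESeq2 and 2 lower by limma-voom). In whole tissue, a different number of cells of a type and a different amount of RNA per cell cannot be told apart. The part of these cell types in the values of the 37 genes was not tested.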

How the data were processed

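The authors deposited raw gene counts of 3 Model and 3 Control libraries, per the file headers, which were used unchanged, while 6 further columns of normalized values were not used. Libraries were depleted of ribosomal RNA, read on a NovaSeq 6000 and trimmed with cutadapt 1.9.3, per the labels' protocols. STAR 2.5.1b, edgeR 3.16.5 and the build mm10 are listed in the submitters' processing notes. Counting tool and strand setting were not given in the sources used here.

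Genes were kept by filterByExpr (minimum count 10), scaled by TMM and tested with edgeR 4.0.16 in R 4.3.3 (quasi-likelihood test, Benjamini-Hochberg adjustment over 13907 genes), a step that was also tested on simulated data. The standard error (SE) is the absolute log2 fold change over the square root of F. Exon lengths and positions came from GENCODE M21 (GRCm38), which held 17555 of 17761 identifiers. Shares were tested by exact permutation (scipy 1.17.1). Alternatives used DESeq2 1.42.0, limma 3.58.1 (voom), other scalings and filters, a replicate block, and libraries left out.

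The members and all lists were chosen with earlier results of these data known. All 37 members are named. Of each other pathway list, up to 3 called genes per direction and Vegfa, Adm, Car9, Arnt, Vhl, Ldhb and Pdk4 are named. Marker genes are named where they were at or near 0, apart from Ucp1, which was named after its values were seen. Some genes that this rule names are not reported here.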

Additional observations from a re-analysis of the deposited data

How the results depend on the processing

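Of 517 values of members over 14 alternatives, 455 kept both direction and side of the threshold, 37 lost a call, 17 gained one and 8 changed sign, all 8 for Hk2, Aldoc and Epas1, which were not called. Slc2a3, Pgk1, Slc16a3, Bnip3l, Egln3 and Ddit4, 6 of the 16 called members, passed under all 14. The count of higher members was 9 to 14 when 1 library was left out (9 without Model 1), 9 without Control 1 and Model 2 together and 22 without a filter, and no alternative called a member lower. For the glycolytic genes it was 4 to 7 with 1 library left out, 14 by DESeq2 and 4 without Control 1 and Model 2 together. For the other HIF targets it was 4 to 6 with 1 library left out and 8 both without a filter and by DESeq2, and for the HIF alpha subunits it was 0 without Control 1 and Model 2 together. With 1 library left out, the median log2 fold change was 1.08 to 1.37 for all members and 1.20 to 1.46 for the other HIF targets. Over all tested genes, 566 passed, 377 higher and 189 lower. These counts were 1111, 642 and 469 without a filter, 1217, 639 and 578 by DESeq2, and 285, 222 and 63 without Control 1 and Model 2 together, and limma-voom called 115 lower. With 1 library left out 317 to 440 passed, 221 to 312 higher and 92 to 136 lower. The causes were not tested.

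With 1 library left out, the log2 fold change was -0.12 (without Model 3) to 0.60 for Hk2, -2.14 to 0.77 (without Control 2) for Aldoc, -0.01 (without Model 3) to 0.63 for Vhl and -0.12 to 0.18 for Epas1. Sign changes of Epas1 were -0.02 without Control 3, -0.12 without Model 1, -0.03 without Model 3, 0.00 with the replicate block, -0.05 with upper-quartile scaling and -0.01 by limma-voom. Of 112 share differences (Model minus Control, in percentage points), 7 changed sign. The Slc2a3 share had -3.00 without Control 1, -2.68 without Model 2 and -14.7 without both. With 1 library left out, the Hk1 share had -0.826 (without Model 1) to 10.3, and -0.528 without Control 3. The Pfkp share had -2.45 (without Control 3) to 12.6 and the Aldoc share -0.912 to 0.239 (without Control 2).

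Deviations from the group means of same-numbered libraries correlated weakly, at 0.147, 0.119 and 0.00367. Model 1 and Model 2 correlated best with the Control library of their own number, and Model 3 with Control 2 (0.0665). These values do not settle whether replicate numbers pair the libraries. With the replicate number as a block, 575 genes passed, and 16 members were higher and 0 lower, with no member's call changed. Depth was lowest for Ankrd37 and Aldoc, which had fewer than 30 counts in at least 1 library of each group and the largest standard errors of the members (1.69 and 1.39).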
